A study of Rattus norvegicus with 8 samples.

Results

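Cholesterol is built from acetyl-CoA through mevalonate, the isoprenoids and squalene to lanosterol and the later sterols. The transcription factor SREBP-2, encoded by Srebf2, switches on most genes of this route when membrane sterol is low. Insig proteins hold SREBP and its escort Scap in the endoplasmic reticulum when sterol is sufficient. Smooth muscle cells of the arterial wall use the route for new membrane and also take up and export cholesterol. Described here are 8 genes of this system, taken by symbol from the 37209 genes of the count table: the regulators Srebf2 and Insig1 and the enzymes Hmgcs1, Idi1, Fdps, Fdft1, Sqle and Lss. They were chosen by name, for their place in the pathway, but with earlier results of these data known. Each had enough counts for a test, with 118 counts in the lowest case (Sqle in injured artery 4) and 7972 in the highest (Hmgcs1 in control artery 4).

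mRNA was sequenced from the carotid arteries of male Sprague-Dawley rats, whose age is not given in the sources used here. In the 4 injured arteries the intima of the left carotid had been damaged with a balloon catheter, and the vessel was taken 2 weeks later. The 4 control arteries were undamaged right carotids taken at the same time from operated animals, so that injury and body side cannot be told apart. The study used the right carotid as the animal's own control, but the labels do not say that a replicate number marks an animal. The main test therefore did not pair the arteries, and a block on the replicate number was an alternative. Whole vessel segments were used, and a lower level in such tissue can come from fewer cells of a type or from less RNA per cell, which cannot be told apart here.

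The total count per library lay between 11459632 and 16658089, and 3 counts, taken as the smallest level a library could show, corresponded to 0.168 to 0.246 CPM, the gene's count as a share of the library after scaling with TMM factors. The extraction text of the labels names a brain region, whereas the tissue label and the study name the carotid artery, and the smooth muscle myosin Myh11 had 2739 to 17816 CPM in the 8 libraries. Markers of sympathetic neurons separated 2 libraries from the rest: their summed level over 10 genes was 12091 CPM in control artery 4 and 3684 CPM in injured artery 3, against 235 CPM in injured artery 1 and 9.68 to 30.7 CPM in the other 5 libraries. The noradrenaline-synthesizing enzyme Dbh, for example, had 3343 CPM in control artery 4, 376 CPM in injured artery 3 and at most 35.3 CPM elsewhere. Npy, of the same list, went against this, with 0 counts in control artery 4 and 1 count in injured artery 3. The marker score used below as a covariate had 9 genes and left Npy out. These 2 libraries bear on every result for the sterol genes, and the counts for these genes and for each pathway list are given with and without them. Summed over their lists, markers of macrophages were at 187 to 253 CPM in the controls and 787 to 1036 CPM after injury, and markers of dividing cells at 10.7 to 19.9 CPM and 95.4 to 147 CPM, whereas contractile smooth muscle markers were at 18086 to 52443 CPM and 10872 to 17149 CPM. Skeletal muscle markers were at 86.3 to 261 CPM in the controls and 336 to 1255 CPM after injury. By the criteria given below, 7 of 9 skeletal muscle, 9 of 10 macrophage and 9 of 9 dividing cell markers were called higher, against 8.31% of all genes tested. Of the contractile smooth muscle markers, 7 of 10 were called lower, against 2.57%. The part of these cell types in the results below was not tested.

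RefSeq promoter windows of the GRCr8 assembly, 300 bases long and reaching from upstream to just past the annotated start, were given for 6 of the 8 genes: Hmgcs1, Idi1, Fdps, Lss, Insig1 and Srebf2. Whether the promoter sequence bears on the levels of the 8 genes was not tested. SREBP acts at such promoters with partner factors, of which NF-Y binds CCAAT. Of the 6 windows, 6 held CCAAT on one of the strands, against 37.7% of all 27457 windows, and 5 held the Sp1 box GGGCGG, against 34.9%. These motifs were not particular to the 8 genes. CCAAT was in 9 of 12 windows of other sterol synthesis genes and in 8 of 11 of fatty acid synthesis genes. GGGCGG was in 11 of the 12 and in 6 of the 11. The E-box CACGTG was found in 1 window, that of Insig1, against 6.65% of all windows. The letters TCACNCCAC, one form of the sterol regulatory element, were found in 0 of 6 windows and in 1.13% of all windows, which says only that these letters are not in these 300 bases. Stretches of 30 bases are printed 5′ to 3′ on the gene's strand, with the match in capitals, CCAAT where it lies on the gene's strand, ATTGG where it lies on the opposite strand, and CACGTG for the E-box.
Hmgcs1, chr2:53382104-53382133, plus strand: cattttcctcccATTGGcagagagtgggtc
Hmgcs1, chr2:53382159-53382188, plus strand: ctgagtccggtgATTGGctgagatagctgc
Idi1, chr17:66547573-66547602, minus strand: tgcctccagctgATTGGtgagcccgggcat
Idi1, chr17:66547542-66547571, minus strand: gtcgaagatgccATTGGctggcgaccgacc
Fdps, chr2:176804929-176804958, minus strand: cgccaccctttcATTGGccagtcgtcacaa
Fdps, chr2:176804884-176804913, minus strand: gaggtcattcagCCAATcagcgaactcggc
Lss, chr20:12118295-12118324, minus strand: ggtgatgctctgATTGGccgcgctcgcatc
Srebf2, chr7:115543166-115543195, plus strand: cttcgcgctccgATTGGctaatgcaggcct
Insig1, chr4:8057945-8057974, minus strand: cgccctcctcccATTGGctcccgcggcctc
Insig1, E-box, chr4:8057831-8057860, minus strand: gctgggtgagatCACGTGgcaccggcgaca

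Across the 4 injured and 4 control arteries, the mean level of each of the 8 genes was lower after injury, and 2 of them, Insig1 and Idi1, passed the criteria for differential expression (false discovery rate, FDR, under 0.05 and fold change above 2). For comparison, 2.57% of the 14359 genes tested were called lower by these criteria, 8.31% were called higher, 6.39% were lower at the FDR alone and 10.8% were higher at the FDR alone. The fitted log2 fold changes of the 8 genes ran from -1.57 to -0.70, with a median of -1.21, whereas the median over all genes tested was -0.06. For all 8 genes the CPM ranges of the groups overlapped, whereas 9.51% of the genes tested were lower without overlap. Fold changes below are those of edgeR's quasi-likelihood test. Its p-values set the difference between the groups against the spread between these arteries, taken as unpaired. The labels do not tie the arteries to single animals.

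**Figure D1:**
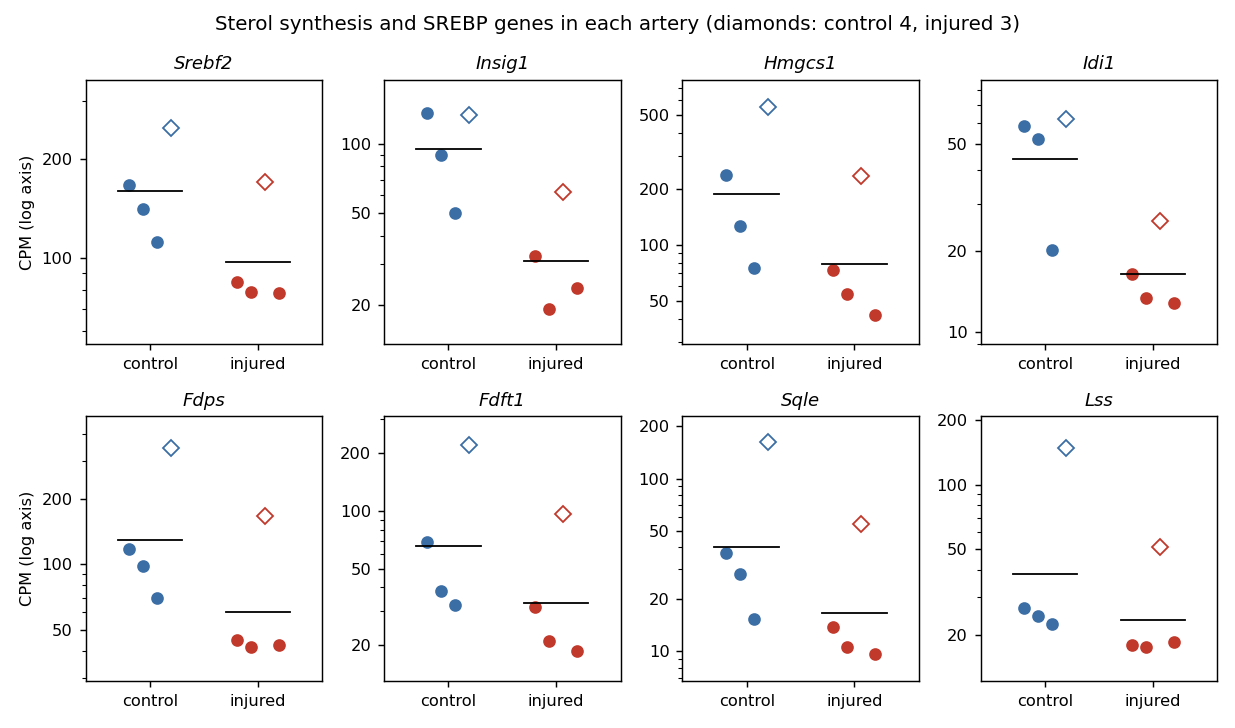
CPM (log axis) of the 8 genes in each artery, control and injured, with points in order of artery 1 to 4, diamonds for control artery 4 and injured artery 3, and a black line at the geometric mean of each group. Injured artery 3 is the highest injured artery for 8 of 8 genes, and control artery 4 the highest control for 7 of 8.

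Among the regulators, Insig1, which retains the SREBP-Scap complex in the endoplasmic reticulum and is itself an SREBP target, was measured at 136, 89.5, 50.3 and 134 CPM in control arteries 1 to 4 and at 32.5, 19.3, 61.8 and 23.6 CPM in injured arteries 1 to 4. The ranges overlapped only through injured artery 3, which lay above control artery 3. Insig1 was lower after injury, with a log2 fold change of -1.57 (standard error 0.44) and an adjusted p of 0.0434 (edgeR, Benjamini-Hochberg). Over the 70 relabellings of the 8 arteries, the two-sided exact permutation test of log2 CPM gave p = 0.0571, where 0.0286 is the smallest value possible. Srebf2 had 166, 140.3, 112 and 248 CPM in the control arteries and 84.5, 79.0, 169.8 and 78.1 CPM in the injured arteries. Injured artery 3 lay above control arteries 1, 2 and 3, and the other injured arteries lay below every control. Its log2 fold change was -0.70 (standard error 0.33, edgeR adjusted p = 0.201, exact permutation p = 0.114), which did not pass the test.

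Hmgcs1, which condenses acetoacetyl-CoA and acetyl-CoA to HMG-CoA at the entry of the mevalonate route, had 237, 126, 74.8 and 554 CPM in control arteries 1 to 4 and 73.2, 54.0, 233 and 41.6 CPM in injured arteries 1 to 4. Injured artery 3 lay above control arteries 2 and 3, whereas the other injured arteries lay below all controls. The log2 fold change of -1.30 had a standard error of 0.75 and did not pass the test (edgeR adjusted p = 0.280, exact permutation p = 0.171). Idi1, the isomerase that interconverts the 5-carbon isoprenoid units, had 58.6, 52.2, 20.2 and 62.2 CPM in the control arteries and 16.4, 13.4, 25.8 and 12.8 CPM in the injured arteries. Injured artery 3 was above control artery 3 and below the other controls. Idi1 was lower after injury, with a log2 fold change of -1.49 (standard error 0.38, edgeR adjusted p = 0.0309, exact permutation p = 0.0571). Fdps, which joins these units to farnesyl diphosphate, the branch point to sterols, dolichol, ubiquinone and prenylated proteins, had 118, 98.3, 69.9 and 343 CPM in the controls and 44.7, 41.4, 166 and 42.6 CPM after injury. Injured artery 3 was above 3 of the 4 controls and the other injured arteries below every control, and the log2 fold change was -1.09 (standard error 0.65, edgeR adjusted p = 0.299, exact permutation p = 0.200). In the GRCr8 annotation 5 pseudogene loci are named after Fdps and 1 after Idi1, and none of the 6 has a row in the count table, so that the counts of both genes are uncertain where reads could belong to a copy.

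Fdft1, squalene synthase and the first enzyme committed to sterols, had 68.9, 38.1, 32.4 and 222 CPM in control arteries 1 to 4 and 31.6, 21.0, 95.9 and 18.7 CPM in injured arteries 1 to 4. Only control artery 4 was above injured artery 3, and the other injured arteries were below every control. The log2 fold change was -1.11 (standard error 0.76, edgeR adjusted p = 0.366, exact permutation p = 0.257). Sqle, squalene epoxidase and a rate-limiting step after squalene, had 37.2, 28.1, 15.3 and 163 CPM in the controls and 13.8, 10.7, 54.9 and 9.65 CPM after injury. The pattern of overlap was that of Fdft1, and the log2 fold change was -1.45 (standard error 0.86, edgeR adjusted p = 0.299, exact permutation p = 0.257). Lss, which closes squalene epoxide to lanosterol, the first sterol, had 26.7, 24.7, 22.7 and 148 CPM in the controls and 18.0, 17.6, 51.2 and 18.7 CPM after injury. Control arteries 1 to 3 lay close to each other and above injured arteries 1, 2 and 4, while control artery 4 and injured artery 3 stood far above both sets. Its log2 fold change of -1.07 (standard error 0.71, edgeR adjusted p = 0.350, exact permutation p = 0.457) turned to 0.09 when control artery 4 was left out.

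The spread within each group was shared by the 8 genes. Control artery 3 was the lowest control for 8 of 8 genes, and of control arteries 1 to 3, control artery 1 was the highest for 8 of 8. Injured artery 4 was the lowest injured artery for 5 genes and injured artery 2 for the other 3. After the group means were subtracted, pairs of the 8 genes correlated across the 8 arteries with a median Pearson r of 0.915 and a lowest value of 0.605, and without control artery 4 and injured artery 3 (n = 6) with a median of 0.912 and a lowest value of 0.666. These coefficients are descriptions over few arteries that share library and tissue composition. Orders of arteries and pairwise coefficients were not computed for other genes. Over the 8 arteries, the median gene correlated with the mean profile of the 8 genes at -0.04, and 438 of 14351 genes did so above 0.9.

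The distance of the 2 libraries rich in sympathetic neuron transcripts from the rest differed between the genes. Control artery 4 was at 5.98 times the median of the other controls for Lss, 5.81 times for Sqle, 5.81 times for Fdft1, 4.40 times for Hmgcs1 and 3.49 times for Fdps. It was at only 1.77 times that median for Srebf2, 1.49 times for Insig1 and 1.19 times for Idi1. In injured artery 3 the ratio to the other injured arteries ran from 1.92 for Idi1 to 5.15 for Sqle. The 2 genes that were called, Insig1 and Idi1, had the smallest excess in control artery 4. Whether sympathetic neurons contributed the sterol transcripts of these libraries was not tested.

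**Figure D2:**
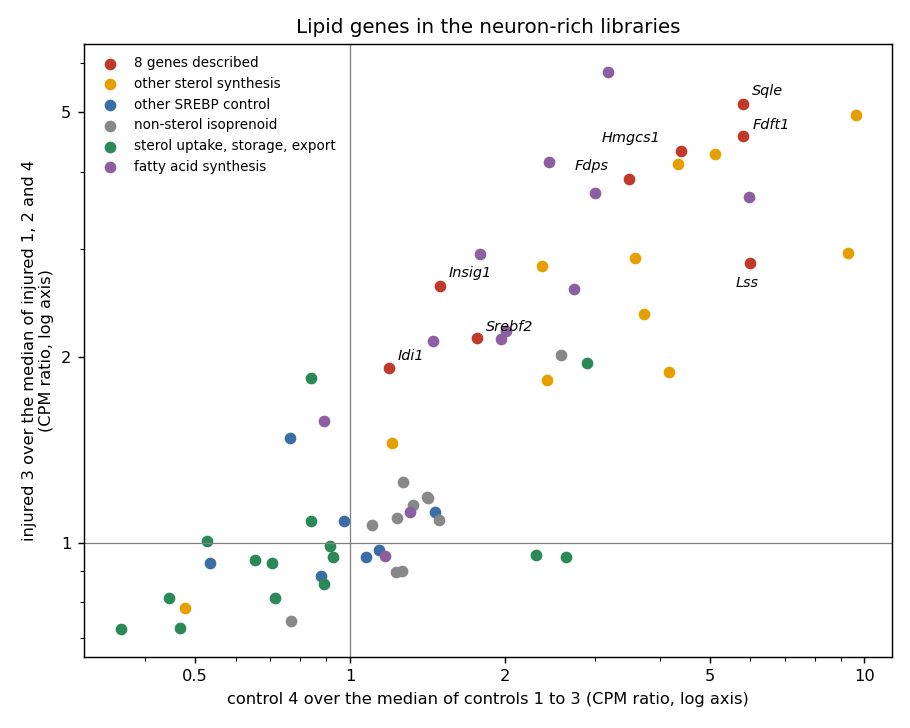
CPM ratio of control artery 4 to the median of the other controls (horizontal log axis) and of injured artery 3 to the median of the other injured arteries (vertical log axis), with 1 point per plotted gene, coloured by gene list, and the 8 genes named. The 8 genes lie above 1 on both axes, and in control artery 4 they reach from 1.19 for Idi1 to 5.98 for Lss.

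With control artery 4 and injured artery 3 both left out, a choice made after the data were seen, 3 control and 3 injured arteries remained, and 8 of 8 genes were lower after injury at the FDR, of which 5 were called. In the same fit 15.9% of genes were lower at the FDR and 4.68% were called lower. The CPM ranges of 8 of 8 genes no longer overlapped, whereas 23.9% of genes were lower without overlap. Both libraries left out were the highest of their group for nearly all of the 8 genes, so leaving them out also narrowed each group. The neuron markers still differed between the groups in this fit. All 5 that were tested had positive log2 fold changes, with a median of 3.67, whereas the median with all 8 arteries was -1.61. Of the 5, 2 were called higher, against 12.5% of all genes. Injured artery 1, with 235 CPM of these markers, stayed in the fit.

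In that fit (edgeR, Benjamini-Hochberg over all genes), the log2 fold change of Insig1 was -1.87, at a standard error of 0.35 and an adjusted p of 0.0044, followed by Idi1 with one of -1.61 (0.35, adjusted p = 0.0095), Hmgcs1 one of -1.37 (0.39, adjusted p = 0.0265), Sqle one of -1.24 (0.31, adjusted p = 0.0156) and Fdps one of -1.15 (0.18, adjusted p = 0.0019). The 3 genes lower by less than the fold criterion were Fdft1, with -0.96 (0.31, adjusted p = 0.0408), Srebf2, with -0.79 (0.14, adjusted p = 0.0040), and Lss, with -0.45 (0.12, adjusted p = 0.0204). Srebf2 and Lss thus fell less than the others in their fitted values, and a test between genes was not made. As ratios of group medians, controls 1 to 3 exceeded injured arteries 1, 2 and 4 by a factor of 3.89 for Idi1, 3.78 for Insig1, 2.64 for Sqle, 2.33 for Hmgcs1, 2.30 for Fdps, 1.82 for Fdft1, 1.78 for Srebf2 and 1.37 for Lss. In the fit of all 8 arteries with the mean log2 CPM of the neuron markers as a covariate, also added after the data were seen, 8 of 8 genes were lower at the FDR, 6 of them called, against 15.9% of all genes lower at the FDR and 4.46% called lower. This covariate was highest in control artery 4 (9.74) and injured artery 3 (7.91), the libraries left out of the other fit. The 2 fits are therefore not independent of each other.

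**Figure D3:**
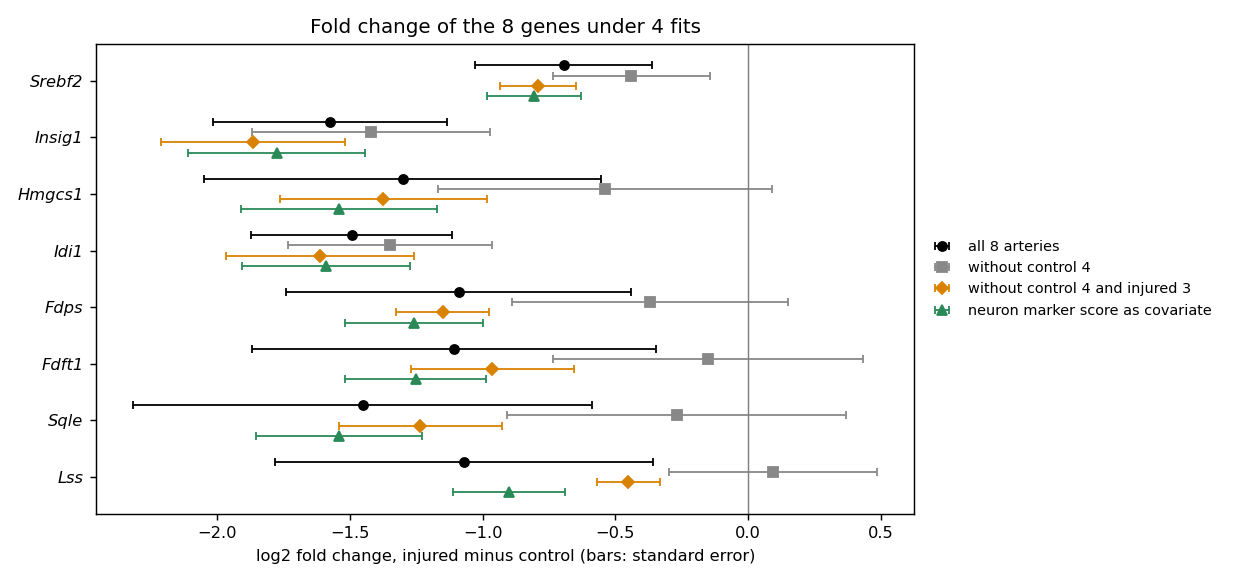
Log2 fold change, injured minus control, with standard error bars, of the 8 genes in 4 fits: all 8 arteries (circles), without control artery 4 (squares), without control artery 4 and injured artery 3 (diamonds) and with the neuron markers as covariate (triangles). With all arteries the genes lie between -1.57 and -0.70, and only Lss lies above 0 in any fit, at 0.09 without control artery 4.

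Leaving out 1 of the 2 libraries did not give the same picture. Without control artery 4 alone, 2 of the 8 genes passed the FDR, Insig1 and Idi1, against 12.9% of all genes lower, and the median log2 fold change of the 8 genes was -0.41. Without injured artery 3 alone, 3 genes were called, Srebf2 in addition, against 2.57% of all genes called lower. Leaving out each of the 8 arteries in turn, Insig1 and Idi1 were each called in 3 of 8 fits, those without control artery 3, control artery 4 or injured artery 3. Neither was called when the replicate number was entered as a block.

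In the fit of all 8 arteries, the rest of the sterol route was like the 8 genes in sign. Of 14 other enzymes of the list, 12 had enough counts, and Nsdhl and Ebp were listed at 0 in every library. The 12 had negative log2 fold changes with a median of -0.72, but edgeR called 0 of them, against 2.57% of all genes called lower (3 at an unadjusted p under 0.05, and 1 called by DESeq2). At the FDR alone 1 was lower, a share near that of all genes (6.39%). Pmvk, phosphomevalonate kinase, was the only one lower at the FDR, with 114, 81.0, 78.8 and 97.7 CPM in control arteries 1 to 4 and 64.3, 48.2, 69.8 and 44.5 CPM in injured arteries 1 to 4. Its ranges did not overlap, and control artery 4 was not its highest control (log2 fold change -0.71, standard error 0.19, edgeR adjusted p = 0.0363). Hsd17b7 and Sc5d, enzymes of the steps after lanosterol, had log2 fold changes of -1.33 and -1.40 and edgeR adjusted p of 0.140 and 0.153. When control artery 4 alone was left out, 5 of the 12 had positive values and the median was -0.13. Without control artery 4 and injured artery 3, 4 of the 12 were lower at the FDR and 3 were called, against 15.9% and 4.68% of all genes. In that fit 2 of the 12 had positive values, whereas all of the 8 genes stayed negative. The covariate gave 7 and 4, against 15.9% and 4.46% of all genes, and 1 positive value.

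**Figure D4:**
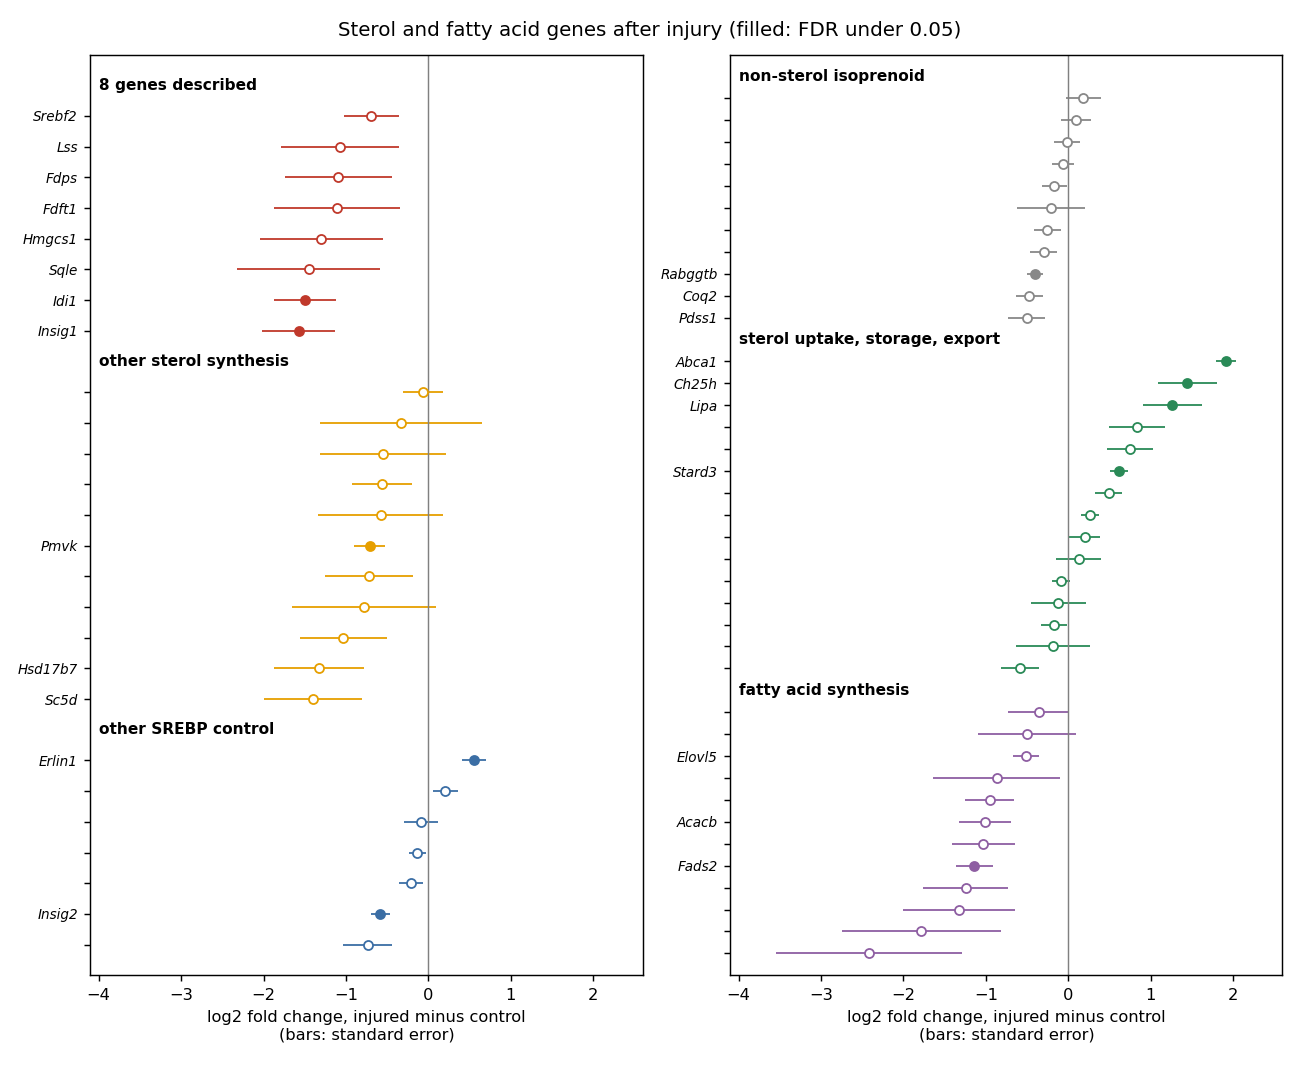
Log2 fold change, injured minus control, of the genes of the 6 lists in the fit of all 8 arteries, with bars for the standard error and filled points for an FDR under 0.05 and symbols for most genes described in the text. The sterol and fatty acid synthesis genes lie below 0, whereas Abca1 at 1.92, Ch25h at 1.45 and Lipa at 1.26 stand out among the genes of uptake, storage and export.

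Of 8 other regulators of SREBP that were tested, 1 was higher and 1 lower at the FDR, shares near those of all genes (10.8% higher and 6.39% lower). The counts were 2 and 2 with control artery 4 and injured artery 3 left out, against 18.9% and 15.9% of all genes. Insig2, the second Insig protein, had 27.6, 27.0, 25.1 and 30.8 CPM in the controls and 18.9, 16.5, 18.4 and 20.0 CPM after injury, without overlap, and control artery 4 was at 1.14 times the median of the other controls (log2 fold change -0.58, standard error 0.12, edgeR adjusted p = 0.0140). Erlin1, an endoplasmic reticulum protein that takes part in sterol-dependent degradation, was higher, with 14.0 to 19.2 CPM in the controls and 20.3 to 25.6 CPM after injury (log2 fold change 0.56, standard error 0.14, edgeR adjusted p = 0.0338). Of the 11 genes of the isoprenoid branches that leave the route at farnesyl diphosphate, Rabggtb, a subunit of the enzyme that prenylates Rab proteins, was the only one lower at the FDR (log2 fold change -0.41, edgeR adjusted p = 0.0270), against 6.39% of all genes, and 2 of the 11 were lower with control artery 4 and injured artery 3 left out, against 15.9%. The log2 fold changes of Coq2 and Pdss1, both of ubiquinone synthesis, were -0.47 and -0.50, with edgeR adjusted p of 0.0905 and 0.167.

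Genes of sterol uptake, storage and export included 3 of 15 that edgeR called higher, against 8.31% of all genes, and their median log2 fold change was 0.26. With control artery 4 and injured artery 3 left out, 4 were called higher, 7 were higher and 1 lower at the FDR, against 12.5% of all genes called higher, 18.9% higher and 15.9% lower at the FDR. The 1 lower was the lipoprotein receptor Vldlr (log2 fold change -0.75, edgeR adjusted p = 0.0045). The receptor Lrp1 had -0.28 in that fit (edgeR adjusted p = 0.148). With all 8 arteries they had -0.59 and -0.12 (edgeR adjusted p = 0.120 and 0.837). Abca1, the exporter of cholesterol to apolipoprotein acceptors, had 40.6, 41.4, 45.0 and 36.9 CPM in the controls and 175, 148, 136 and 159 CPM after injury. The groups were far apart in every artery, and the log2 fold change was 1.92 (standard error 0.12, edgeR adjusted p = 0.000162). Ch25h, which makes 25-hydroxycholesterol, an oxysterol that blocks SREBP processing, had 0.973 to 2.95 CPM in the controls and 3.99 to 7.54 CPM after injury (log2 fold change 1.45, standard error 0.36, edgeR adjusted p = 0.0291). Lipa, the lysosomal lipase that frees cholesterol from its esters, had 28.5, 26.5, 26.8 and 70.4 CPM in the controls and 66.7, 93.4, 88.4 and 117 CPM after injury, overlapping through control artery 4 (log2 fold change 1.26, standard error 0.36, edgeR adjusted p = 0.0452). With the replicate number as a block, Ch25h was not called (edgeR adjusted p = 0.0543), nor did Insig2 (0.0544), Erlin1 (0.0644) and Rabggtb (0.0950) pass the FDR. Stard3, a sterol carrier of late endosomes, was higher at the FDR only (log2 fold change 0.62, edgeR adjusted p = 0.00749). Macrophage markers were higher in the same injured arteries, by the summed levels given above, and their part in Abca1, Ch25h, Lipa and Stard3 was not tested.

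Fatty acid synthesis, the other lipid route under SREBP control, had negative log2 fold changes for each of its 12 tested genes, with a median of -1.02. Fads2, the delta-6 desaturase, was the only one called, against 2.57% of all genes called lower, with 109 to 132 CPM in the controls and 35.8 to 77.3 CPM after injury (log2 fold change -1.14, standard error 0.22, edgeR adjusted p = 0.0105). Elovl5, an elongase of polyunsaturated fatty acids, and Acacb, the acetyl-CoA carboxylase of mitochondria, had log2 fold changes of -0.51 and -1.01 and edgeR adjusted p of 0.0550 and 0.0606. Leaving out control artery 4 and injured artery 3, 9 of the 12 were lower at the FDR and 7 were called, against 15.9% and 4.68% of all genes. Adipocyte markers summed to 102, 922, 339 and 927 CPM in control arteries 1 to 4 and to 200 to 411 CPM after injury, and their part in this list was not tested.

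The genes whose within-group deviations followed the mean profile of the 8 genes most closely over the 8 arteries were Timm22 (Pearson r 0.992), Smg8 (0.991), Cyp51 (0.989), Map3k13 (0.989) and St8sia6 (0.986). Over the 7 arteries other than control artery 4, Calm-ps2, Timm22, Smg8, Map3k13 and Ncald came first. Cyp51, lanosterol demethylase, is the next enzyme of the route after Lss, and had 126, 109, 56.4 and 258 CPM in the controls and 48.3, 46.1, 129.7 and 44.9 CPM after injury. In all, 8 of the 12 other sterol genes had r above 0.9, against 438 of 14351 genes. Without control artery 4 and injured artery 3, this held for 2 of 12, Cyp51 and Hsd17b7, against 297 genes, and the coefficients over so few arteries are a description only.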

How the data were processed

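mRNA libraries of 4 injured and 4 control carotid arteries were analysed. The authors deposited raw read counts per gene symbol in 1 table of 37209 genes. The submitters' processing notes name HISAT2 2.0.4, and the counting tool, genome build, annotation and strand setting are not given in the sources used here.

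Counts were filtered with filterByExpr (minimum count 10), which kept 14359 genes, scaled with TMM factors and compared with the quasi-likelihood test of edgeR 4.0.16 (R 4.3.3, limma 3.58.1), without covariates, with Benjamini-Hochberg adjustment over all genes tested. Called genes had to differ by more than 2-fold at an FDR below 0.05, the criteria of the study, which used DESeq. DESeq2 1.42.0 was an alternative, as were other scalings and filters, a replicate block, a test of exceeding a 1.5-fold change, and leaving out each artery. Leaving out control artery 4 with injured artery 3, and the neuron marker covariate, were added after the data were seen. The tests were checked on simulated data. Single values were compared by an exact permutation test of log2 CPM (prior count 2).

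The genes, lists and markers were chosen with earlier results of these data known. Named were the 8 genes, every called gene of the lists, the 3 genes per list with the smallest edgeR p and the 5 genes most alike in profile. The receptors Vldlr and Lrp1 were named in addition. Of the genes so chosen, 1 is not reported here, and 1 more list gene is left out of the plots, while the counts and medians of the lists include both. Promoter sequences are those of RefSeq, assembly GRCr8, matched by symbol for 6 of 8 genes. No sequence could be read by coordinates of the count table, whose build is unknown. The floors of 3 counts cover counting error only, whereas the standard errors and p-values of the fits include the spread between arteries.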

Additional observations from a re-analysis of the deposited data

Results flagged for a closer look

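In groups of 4, a library was listed when the gap to its nearest neighbour, divided by the range of the group, exceeded the critical value of Dixon's test. The ratio was taken on CPM, not on log values. Of the 48 groups examined, made of 24 named genes in control and injured arteries, 13 did so. Chance would give about 2.4 in independent groups. The genes varied together over the same libraries and were partly chosen by their p, so setting 13 against 2.4 is not a test. All 13 lay in control artery 4 (5 of them) or injured artery 3.

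In injured artery 3 the ratio was 0.974 for Fdps, 0.967 for Lss, 0.930 for Srebf2, 0.908 for Sqle, 0.835 for Hmgcs1 and 0.832 for Fdft1. Fdps, for example, had 166 CPM there and 44.7 CPM in the nearest injured artery, and Srebf2 169.8 against 84.5 CPM. Among the other sterol genes, Hsd17b7 had a ratio of 0.908 (7.58 against 4.19 CPM) and Sc5d one of 0.834 (34.8 against 12.9 CPM).

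In control artery 4 the ratio was 0.968 for Lss, with 148 against 26.7 CPM, and 0.852 for Sqle, with 163 against 37.2 CPM. Sc5d had 0.856, Coq2 had 0.894, with 31.5 against 24.5 CPM, and Lipa had 0.955, with 70.4 against 28.5 CPM. Insig1 and Idi1, the 2 genes called, were not among those that stood apart in either group.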

How the results depend on the processing

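Of the 8 genes, 2 were called and 2 passed the FDR in the comparison reported. Both counts were 1 with library totals as the only scaling and 1 without a filter on low counts, and DESeq2, RLE or upper-quartile factors and a stricter filter gave 2. A test against a fold change of 1.5 called 0, where the ordinary test has 2 at an unadjusted p under 0.05. Leaving out 1 artery gave 0 to 3 for both counts, with 0 in the 5 fits without control artery 1 or 2 or injured artery 1, 2 or 4. There, the adjusted p of Insig1 was 0.0810 to 0.127 and that of Idi1 0.0759 to 0.0992 (edgeR). Without control artery 4 and injured artery 3, 5 genes were called and 8 passed the FDR, and with the neuron marker covariate 6 and 8. The log2 fold change of Lss ran from -1.623 to 0.094 over the single arteries left out, and the positive value was that without control artery 4.

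Of the 12 other sterol genes tested, 0 were called and 1 passed the FDR, and DESeq2 gave 1 and 2. The FDR count was 0 with upper-quartile factors, with library totals and with the block. Leaving out both neuron-rich libraries gave 3 and 4, the covariate 4 and 7, and leaving out single arteries 0 to 2 called and 0 to 3 at the FDR.

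With the replicate number as a block, 0 of the 8 genes were called and 0 passed the FDR, with log2 fold changes of -1.67 for Insig1 (adjusted p = 0.119) and -1.47 for Idi1 (adjusted p = 0.135), and Pmvk, Insig2, Erlin1 and Rabggtb no longer passed the FDR and Ch25h was no longer called (adjusted p = 0.0726, 0.0544, 0.0644, 0.0950 and 0.0543), while Abca1, Lipa, Stard3 and Fads2 still passed it. The calls over all genes fell from 1562 to 1187. The labels call the control vessel the animal's own but do not say that a number marks an animal. Deviations of same-numbered arteries correlated at 0.301, 0.45, -0.52 and -0.416 for numbers 1 to 4, and 3 of 8 arteries correlated best with their own number.

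Library totals moved the median log2 fold change of all genes by 0.175 and the share of calls that were higher from 76.4% to 85.1%, and the 8 genes kept negative values (-1.39 to -0.53). Over all genes, calls numbered 1040 against a fold change of 1.5, 1007 with the stricter filter, 2398 without control artery 4 and 2473 without control artery 4 and injured artery 3. The cause of these differences was not tested. The 8 genes had at least 118 counts in every library.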

Other observations

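Of 608 protein-coding genes that the GRCr8 annotation places on chromosome X and that matched the table by symbol, 594 (97.7%) were listed at 0 in all 8 libraries, against 1543 of 16019 autosomal genes (9.63%). Nsdhl and Ebp of the sterol route and Mbtps2, the site-2 protease of SREBP, are among the genes listed at 0. No level is therefore given for these 3 genes, and the cause was not tested.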
